A study of Mus musculus with 48 samples.

Results

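The adult and prepubertal preoptic area of female mice exposed to dihydrotestosterone (DHT) before birth were compared in 12 RNA-seq libraries, chosen by their titles from the 48 libraries of the series. The tissue was punched from the preoptic area of the hypothalamus of offspring of GnRH-Cre males, homozygous for the driver, and females homozygous for a floxed-stop L10a-GFP allele. GFP-tagged ribosomes are therefore made wherever the GnRH driver has been active, and the RNA read here is the supernatant, the fraction left once those ribosomes had been pulled out, so that it comes from every cell type of the punch. The 4 groups used were adult DHT (6 libraries), young DHT (6), adult vehicle (5) and young vehicle (6). All 23 libraries carried the same genotype, labelled GnRH CRE x Floxed L10a-GFP, and by the labels the vehicle groups differed from the DHT groups in the prenatal treatment alone. DHT dose, days of exposure and age in days are not given in the sources used here. Adult mice were in diestrus and young mice were prepubertal, so age and ovarian state cannot be told apart. The labels call the replicates biological without saying whether each is 1 mouse or a pool. The p-values therefore measure the spread between these libraries.

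The preoptic area holds the GnRH neurons that drive the gonadal axis, the kisspeptin neurons of its rostral periventricular part that excite them, and a dense field of neurons that sense sex steroids. Between weaning and adulthood its oligodendrocytes go on maturing: dividing precursors leave the cycle, pass through a short premyelinating stage, and then wrap axons. Puberty begins when kisspeptin drive on GnRH neurons grows and brakes on it, among them the imprinted gene Mkrn3, are released. DHT is an androgen that is not converted to oestradiol, and prenatal exposure to it is used in rodents as a model of polycystic ovary syndrome.

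The 12 libraries held between 28136000 and 44607285 counts, and values below are counts scaled to the library total (CPM), which are not divided by transcript length and so compare libraries for 1 gene, not 1 gene with another. Libraries of a group correlated with a median r of 0.981 in adults and 0.981 in young mice, on the log scale across genes. The summed level of 10 preoptic and hypothalamic neuron markers was 120, 190 and 204 CPM in adult DHT libraries, against 127, 162 and 220 CPM in young DHT libraries (lowest, median and highest, the order used throughout). Markers of the striatum, which borders the punch, were present too, at 164, 977 and 1185 CPM in adults and 757, 936 and 1250 CPM in young mice. The lowest of these values was adult replicate 5, whose oxytocin level was the highest of its group at 517 CPM, and adult replicate 1 had the lowest preoptic marker sum. Adult replicate 4 had a vascular marker sum of 264 CPM, against 53.6 to 60.8 CPM in the other adults, and a meningeal fibroblast sum of 194 CPM, against 8.81 to 20.03 CPM. Young replicates 4 to 6 bear later sample numbers in the labels than the other libraries, and had 5661 to 6722 CPM of the nuclear RNA Malat1, against 3126 to 3793 CPM in young replicates 1 to 3. Young vehicle replicates 5 and 6 have later numbers too, while no adult has. The labels describe the mice as female, though 1 protocol label also mentions both sexes. Xist, which silences 1 X chromosome in female cells, had 0.875 to 2.56 CPM in adults, 0.847 to 1.29 CPM in young replicates 1 to 3 and 3.41 to 7.44 CPM in young replicates 4 to 6. The 4 Y-linked genes Ddx3y, Eif2s3y, Kdm5d and Uty stood at 0.0592 CPM or less in every library.

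The preoptic transcriptome of DHT mice changed with age in both directions. Of 16286 genes tested by edgeR's quasi-likelihood test with Benjamini-Hochberg adjustment at 0.05, 1542 (9.47%) were higher in adult DHT mice than in young DHT mice and 1706 (10.5%) were lower. These shares of all tested genes are the background for every list count below. The changes were mostly small: 83 of the genes that rose and 183 of those that fell did so by 2-fold or more, and the median log2 change of all tested genes was 0.01. The libraries of both ages did not overlap at all for 640 genes that were higher (3.93%) and 740 that were lower (4.54%). Without the later sample numbers, 487 genes of 16408 rose (2.97%) and 634 fell (3.86%). That fit dropped 3 of the 6 young DHT and 2 of the 6 young vehicle libraries, so it tested genes on fewer libraries. A call lost there does not by itself show that a change depended on the later libraries. In vehicle mice, whose libraries are separate from these, 1641 genes (10.1%) rose with age and 1660 (10.2%) fell. Of the genes called in DHT mice, 1830 were called in vehicle mice in the same direction, 56.3% of the DHT calls and 55.4% of the vehicle calls, and 0 were called in the opposite direction.

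Among called genes whose ages did not overlap and that averaged at least 5 CPM at the higher age, the largest rise in DHT mice was that of Il33, a nuclear cytokine of the interleukin-1 family that is released by damaged cells and is made in the brain by oligodendrocytes and astrocytes (chromosome 19, 29925113 to 29960718, GRCm38). It stood at 57.6, 76.6 and 118 CPM in adults, against 8.36, 11.8 and 14.9 CPM in young mice, a log2 change of 2.79 ± 0.18 (SE; adjusted p = 2.89e-10), or 6.90-fold. Every adult library lay far above every young one, and the vehicle groups differed by 2.85. Serpinb1a, an intracellular inhibitor of neutrophil-type serine proteases, had 9.17, 12.5 and 18.6 CPM in adults and 1.54, 2.24 and 3.31 CPM in young mice (2.51 ± 0.24, adjusted p = 1.14e-07). Tnfaip6, a secreted protein that binds hyaluronan, had 4.86, 6.66 and 14.3 CPM in adults and 1.18, 1.63 and 2.88 CPM in young mice (2.06 ± 0.26, adjusted p = 4.52e-06). In both genes the lowest adult exceeded the highest young library. Neat1, the long noncoding RNA that scaffolds nuclear paraspeckles, had 17.7, 25.0 and 45.0 CPM in adults and 3.66, 8.32 and 12.8 CPM in young mice (1.72 ± 0.27, adjusted p = 0.00011). Cap1, a regulator of actin filaments, differed by 1.40 ± 0.24 (adjusted p = 0.000368), with 126, 137 and 146 CPM in adults against 22.6, 51.3 and 76.5 CPM in young mice. Adult Cap1 values sat in a narrow band below which the young ones were widely spread. The other 10 of the 15 largest rises, from Rasgrp3 at 1.28 to Sowahb at 1.13, included the oligodendrocyte genes Car2 and Hapln2. Of these 15 genes, 14 were also called higher in vehicle adults, and Cap1 was not (0.64, adjusted p = 0.073). Cap1 shares exon sequence with Ppt1 on the opposite strand, and the library kit does not mark strand, so reads in the shared stretch, 129 bases long, cannot be told apart.

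**Figure D1:**
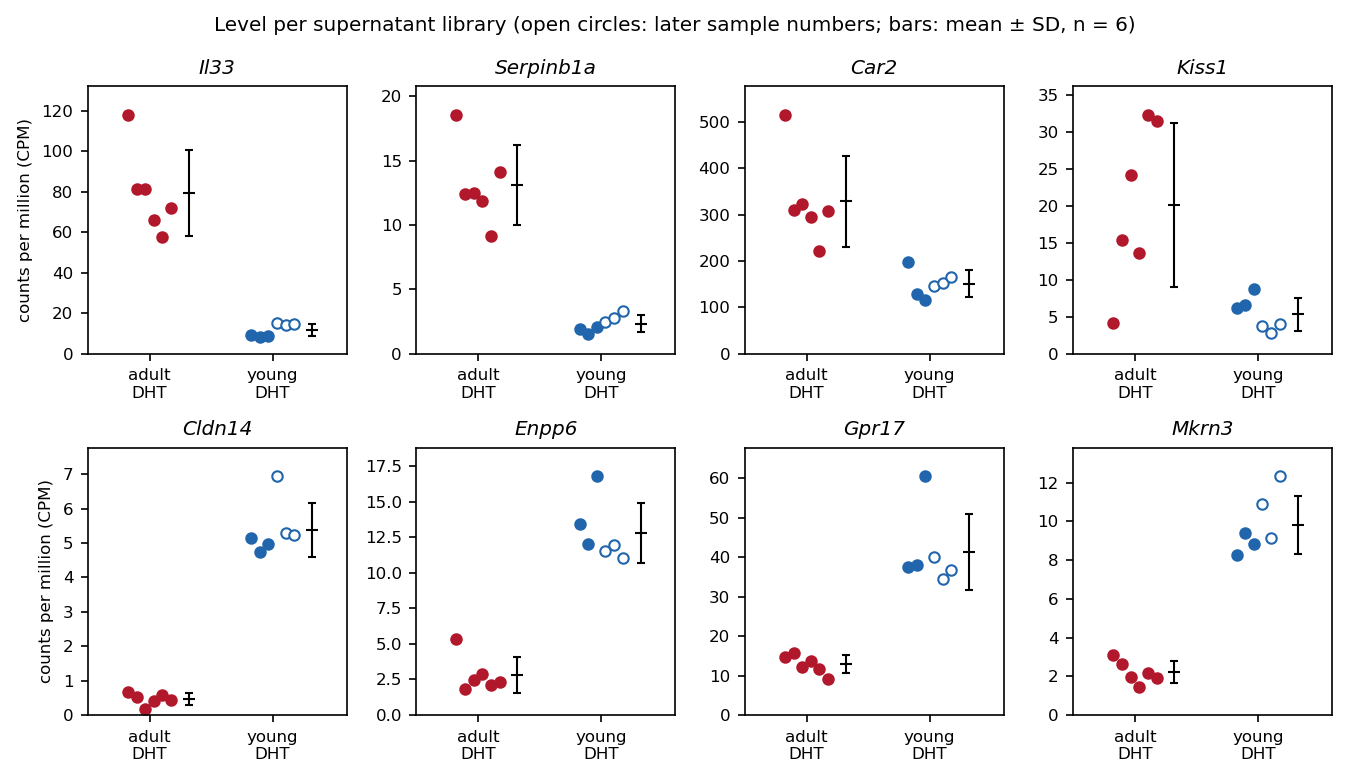
CPM of 8 genes (vertical axes, 1 per panel) in each supernatant library of adult DHT mice (left) and young DHT mice (right), 6 libraries each; bars are the mean ± SD and open circles mark the later sample numbers. Il33, Serpinb1a and Car2 were higher in every adult library than in any young one, Cldn14, Enpp6, Gpr17 and Mkrn3 were lower in every adult library, and Kiss1 overlapped through adult replicate 1 at 4.06 CPM.

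By the same rule, the 15 largest falls in DHT mice were led by Cldn14 and included red cell, oligodendrocyte and imprinted genes. Cldn14, a tight junction claudin (chromosome 16, 93919031 to 94008837, GRCm38), had 0.162, 0.480 and 0.673 CPM in adults, against 4.75, 5.19 and 6.94 CPM in young mice. This was 11.5-fold lower, a log2 change of -3.52 ± 0.25 (adjusted p = 7.67e-10), and the level in every adult library was below 1 CPM. Prom1, the membrane protein CD133 of progenitor cells, had 0.594, 1.08 and 1.88 CPM in adults and 4.56, 5.33 and 6.96 CPM in young mice (-2.23 ± 0.25, adjusted p = 1.06e-06). Cnksr3, a scaffold of the Ras pathway, had 2.99, 3.39 and 4.27 CPM in adults and 9.92, 12.6 and 16.4 CPM in young mice (-1.91 ± 0.19, adjusted p = 2.4e-07). Arpc1b, a subunit of the Arp2/3 complex that starts branched actin filaments, had 19.9, 25.9 and 55.9 CPM in adults and 83.3, 116 and 173 CPM in young mice (-1.89 ± 0.21, adjusted p = 8.05e-07). None of these 4 genes overlapped between the ages. Crybb1, a crystallin also made by microglia, fell by 1.57 on the log2 scale (adjusted p = 1.72e-05). Red cell genes, members of the oligodendrocyte lists and Mkrn3 made up most of the rest of the 15 largest falls, and 15 of 15 were also called lower in vehicle adults. Prom1 and Arpc1b share exon sequence with the genes Gm16401 and Pdap1 on the opposite strand.

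Genes of oligodendrocyte precursors and premyelinating cells fell together. Of 20 tested, 12 were lower in adult DHT mice and 0 were higher, against 10.5% and 9.47% of all tested genes. The median log2 change was -0.58 against 0.01 for all tested genes. In 9 of 20 the libraries of the ages did not overlap, against 8.47% of all tested genes. Enpp6, a choline phosphodiesterase that marks newly forming oligodendrocytes (chromosome 8, 46939197 to 47096762, GRCm38), had 1.83, 2.41 and 5.34 CPM in adults, against 11.1, 12 and 16.8 CPM in young mice (-2.16 ± 0.27, adjusted p = 3.85e-06). Rnf122, a ubiquitin ligase, had 5.28, 6.84 and 10.1 CPM in adults and 21.8, 24.3 and 27.4 CPM in young mice (-1.77 ± 0.13, adjusted p = 1.68e-09). Gpr17, a receptor of premyelinating cells that holds back their maturation, had 9.24, 13 and 15.6 CPM in adults and 34.4, 37.8 and 60.6 CPM in young mice (-1.68 ± 0.16, adjusted p = 9.75e-08). For all 3 genes the highest adult was below the lowest young library. Bcas1, another gene of early myelinating cells, fell by 1.42. Fyn, the kinase that acts at first contact between axon and oligodendrocyte and is also expressed by neurons, had 193, 197 and 201 CPM in adults and 264, 271 and 291 CPM in young mice (-0.48 ± 0.05, adjusted p = 1.22e-07), a small step between 2 narrow ranges. The lineage transcription factors fell less, with log2 changes of -0.80 for Olig1, -0.66 for Olig2, -0.48 for Sox10 and -0.57 for Nkx2-2. Bmp4 (-1.92), Neu4 (-0.81) and Itpr2 (-0.76) completed the 12.

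Pdgfra and Cspg4, which mark dividing precursors, were not called. Pdgfra, the receptor for the growth factor that keeps precursors dividing, had 6.84, 12.2 and 16.0 CPM in adults and 8.43, 12.1 and 14.4 CPM in young mice, a difference of -0.03 (adjusted p = 0.93). Cspg4, the NG2 proteoglycan, differed by -0.59 (adjusted p = 0.083), close to the list median of -0.58. Both ages overlapped almost fully for Pdgfra. Without the later sample numbers 10 of the 12 precursor genes remained called, Bmp4 and Nkx2-2 being lost, and leaving out any 1 library left 11 to 13 genes of the list called lower. The Gpr17 counts can include reads of Lims2, which overlaps it on the opposite strand.

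Genes of mature oligodendrocytes and myelin were divided. Of 30 tested, 15 were lower in adult DHT mice and 4 were higher, against 10.5% and 9.47% of all tested genes. The median log2 change was -0.50. The sum of the list was 3033, 3806 and 6503 CPM in adults, against 5550, 6367 and 8455 CPM in young mice, and the highest adult, replicate 1, was the single adult above the lowest young library. Mobp, a protein of compact myelin, had 139, 165 and 287 CPM in adults and 464, 504 and 697 CPM in young mice (-1.58 ± 0.15, adjusted p = 1.22e-07). Gal3st1, the sulfotransferase that makes the myelin lipid sulfatide, had 21.5, 25.1 and 36.9 CPM in adults and 53.5, 75.4 and 90.6 CPM in young mice (-1.45 ± 0.14, adjusted p = 7.24e-08). Neither gene overlapped between the ages. Mbp, the basic protein that compacts the myelin sheath, had 782, 965 and 1727 CPM in adults and 1568, 1908 and 2410 CPM in young mice (-0.84 ± 0.15, adjusted p = 0.000412), and it overlapped through adult replicate 1. The adhesion protein Mog (-1.02), the tight junction protein Cldn11 (-1.19), the galactolipid enzyme Ugt8a (-1.15), the actin-severing protein Gsn (-1.18), Cnp (-0.85) and Mag (-0.68) fell as well.

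The other 4 calls of the myelin list were rises. Car2, a carbonic anhydrase of mature oligodendrocytes, had 222, 309 and 516 CPM in adults, against 116, 148 and 198 CPM in young mice (1.13 ± 0.15, adjusted p = 1.36e-05). Hapln2, a link protein that anchors the matrix at nodes of Ranvier, had 14.9, 20.6 and 35.1 CPM in adults and 6.78, 10.1 and 10.7 CPM in young mice (1.19 ± 0.19, adjusted p = 0.000102). Both were higher in every adult library. The iron carrier Trf rose by 0.86 (adjusted p = 0.0106) and Anln, an actin-binding protein found in late myelin, by 0.74 (adjusted p = 0.0091). Opalin, Ermn, Aspa, Klk6 and Gjb1, also genes of mature cells, did not pass the test, with differences between -0.22 and 0.30. Of the 19 calls, 17 remained without the later sample numbers, all 15 falls among them, while the rises of Trf and Anln lost their calls. With an offset for transcript length 19 of 19 remained. In vehicle mice 16 members of the list were lower in adults and 4 higher, with a median of -0.71, and for precursor genes 14 were lower and 0 higher. Fewer cells of a type and less RNA per cell cannot be told apart in such bulk libraries.

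**Figure D2:**
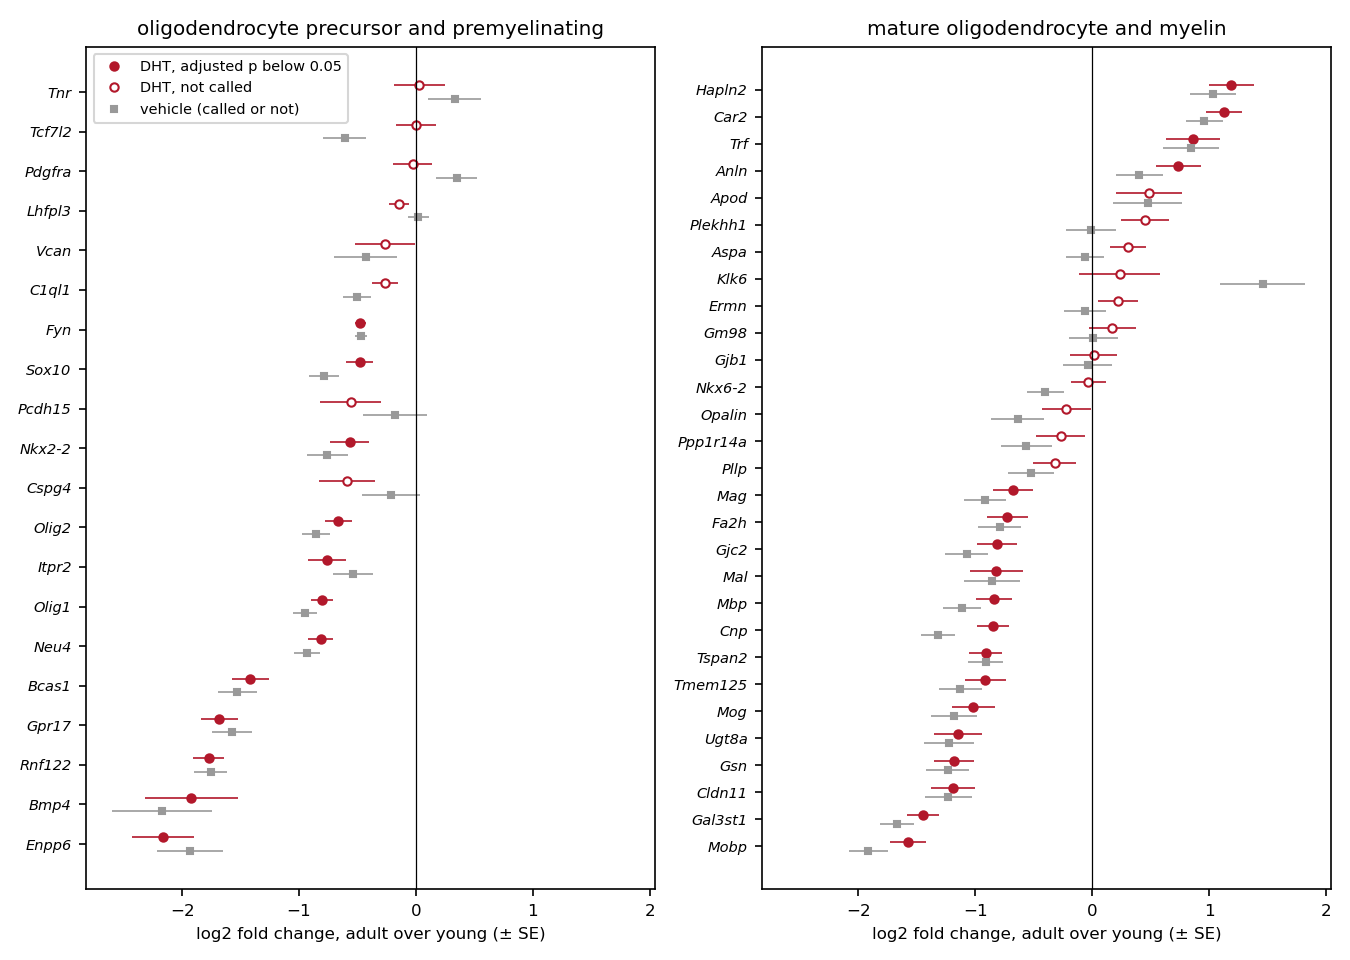
Log2 change with age (horizontal axis, adult minus young, ± SE) of 20 genes of oligodendrocyte precursors and premyelinating cells and 29 genes of mature oligodendrocytes and myelin, in DHT mice (red, filled where the gene passed the test) and vehicle mice (grey squares). All 12 called precursor genes lie below 0, while 14 called myelin genes lie below and Car2, Hapln2, Trf and Anln above.

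Genes of young and migrating neurons were lower in adults. Of 21 tested, 8 fell and 0 rose in adult DHT mice (median -0.23), while 10.5% of all tested genes fell. Without the later sample numbers 6 of the 8 remained called. Marcksl1, which links actin to the membrane of growing processes, had 395, 453 and 514 CPM in adults, against 836, 919 and 1032 CPM in young mice, 2.00-fold lower (log2 -1.0 ± 0.07, adjusted p = 7.67e-10). D0H4S114, now named Nrep, a neuronal protein of regenerating neurons, had 50.8, 58.3 and 64.8 CPM in adults and 91.0, 108 and 119 CPM in young mice (-0.87 ± 0.09, adjusted p = 3.6e-07). Stmn2, which destabilizes microtubules in growing axons, had 485, 522 and 563 CPM in adults and 668, 716 and 749 CPM in young mice (-0.43 ± 0.06, adjusted p = 2.03e-05). The ages did not overlap for these 3 genes, and spreads within an age were small. Tmsb10 (-0.56), Sox4 (-0.45), Sox11 (-0.28), Basp1 (-0.35) and Nnat (-0.28) fell too, while Dcx, the doublecortin of migrating neurons, differed by -0.11 (adjusted p = 0.60). Among 14 genes expressed by neurons at large, Thy1 rose by 0.64 (adjusted p = 0.00151), Nefh, the heavy neurofilament, by 0.48 and Snap25, a protein of vesicle fusion, by 0.23, 4 rose in all, and Stmn2 was the 1 that fell. Thy1 and Stmn2 were the calls left without the later sample numbers, while Nefh (0.39, adjusted p = 0.0911) and Snap25 (0.22, adjusted p = 0.0947) lost their calls.

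Genes of dividing cells summed to 106, 110 and 117 CPM in adult DHT mice, against 103, 116 and 123 CPM in young DHT mice. Of 21 tested among 22 listed, 5 fell and 2 rose in adult DHT mice, while 10.5% of all tested genes fell and 9.47% rose. Ccnb1, the cyclin of mitotic entry, had 0.267, 0.356 and 0.483 CPM in adults and 0.589, 1.13 and 1.44 CPM in young mice (-1.61 ± 0.35, adjusted p = 0.0022). Cdk1, its kinase, and Mki67, the Ki-67 protein of cycling nuclei, differed by -1.62 and -2.22 at 1.24 CPM or less in every library. Pcna (0.22) and Mcm2 (0.50), which also serve DNA repair and replication licensing, rose. Ccnb1 alone remained called without the later sample numbers, with 1 lower and 0 higher in the list.

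Regulators of DNA methylation and chromatin changed in both directions, with 8 lower and 4 higher of 26. Among all tested genes 10.5% were lower and 9.47% higher. Dnmt3a, which sets new DNA methylation in neurons after birth, had 50.1, 53.9 and 56.4 CPM in adults, against 76.4, 84.2 and 98.8 CPM in young mice (-0.67 ± 0.09, adjusted p = 1.27e-05). Cbx7, a Polycomb reader of methylated histone H3, had 91.1, 100 and 109 CPM in adults and 50.6, 55.7 and 61.6 CPM in young mice (0.84 ± 0.08, adjusted p = 3.79e-08). These moved in opposite directions with no overlap. Tet1, an enzyme that oxidizes methylcytosine, fell by 0.77, and the linker histone H1f0 by 0.47. Of the catalytic subunits of Polycomb complex 2, Ezh2 fell by 0.82 (adjusted p = 0.0084) and Ezh1 rose by 0.42 (adjusted p = 0.0044). Cbx7, Dnmt3a, H1f0 and Tet1 were the 4 that remained called both without the later sample numbers and with the length offset. With the later numbers left out, 3 members were lower and 1 was higher.

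Mkrn3, a maternally imprinted ubiquitin ligase whose loss in humans brings on early puberty (chromosome 7, 62417593 to 62420153, GRCm38), was lower in adults. It had 1.45, 2.07 and 3.09 CPM in adult DHT mice, against 8.24, 9.27 and 12.3 CPM in young DHT mice, 4.40-fold lower (log2 -2.14 ± 0.18, adjusted p = 1.92e-08). No libraries overlapped, vehicle mice differed by -2.44, the change without the later sample numbers was -2.0, and leaving out any 1 of the 12 libraries gave between -2.27 and -2.03. Of 30 tested imprinted genes (32 listed), 5 were lower and 1 was higher, near the 19.9% of all tested genes called in either direction. Without the later sample numbers 4 were lower and 0 higher. Cdkn1c, an inhibitor of the cell cycle, fell by 1.19 (adjusted p = 0.000473), Nap1l5 by 0.32 (adjusted p = 0.00235), and Dio3, the deiodinase that inactivates thyroid hormone, by 1.28 (adjusted p = 0.00292). Plagl1, a zinc finger regulator of growth, rose by 0.64, a call lost without the later sample numbers (adjusted p = 0.0904). Dio3 had 0.513, 1.19 and 1.5 CPM in adults and 1.87, 2.88 and 3.45 CPM in young mice, with no overlap. In vehicle mice Dio3 differed by -0.09 (adjusted p = 0.872).

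Kiss1, the precursor of the kisspeptins that excite GnRH neurons (chromosome 1, 133321887 to 133329722, GRCm38), was higher in adults. The adult libraries had 4.06, 15.4, 24.1, 13.5, 32.3 and 31.4 CPM (replicates 1 to 6), against 6.16, 6.5, 8.72, 3.69, 2.79 and 3.95 CPM in young libraries. Of the adults, 5 were above every young library and replicate 1, which also had the lowest preoptic marker sum, lay among them. The log2 change was 1.90 ± 0.37 (adjusted p = 0.000935), and 2.24 in vehicle mice. Without the later sample numbers it was 1.49 (adjusted p = 0.0839). In Kiss1 the RefSeq record overlaps Golt1a and Gm28040 on the same strand. The rise of Kiss1 in the female preoptic area across puberty is known to need oestradiol, whose receptors bind paired copies of the half-site AGGTCA, so the 250 bases before the start that the RefSeq promoter table gives for it, which lies inside the span above, are shown (GRCm38.p6, chr1:133326962-133327211, plus strand), with the half-site, here in its reverse complement TGACCT, in capitals.
Kiss1: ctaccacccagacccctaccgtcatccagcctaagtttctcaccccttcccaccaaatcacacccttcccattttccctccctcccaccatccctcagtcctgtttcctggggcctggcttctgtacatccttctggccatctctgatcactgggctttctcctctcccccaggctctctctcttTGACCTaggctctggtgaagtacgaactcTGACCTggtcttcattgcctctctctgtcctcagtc
The half-site stood 65 and 36 bases before the start. Both copies had the same orientation with other bases between them, so they are not shown to be a pair that oestrogen receptors bind. On either strand the half-site was found in 14% of 32851 such windows of the genome. A match is a run of letters and no evidence of binding.

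Of 16 tested genes of kisspeptin, tachykinin and GnRH control (18 listed), 3 rose and Mkrn3 fell. Among all tested genes 19.9% were called in either direction. Gnrh1, the precursor of the hormone itself, had 34.4, 39.7 and 50.4 CPM in adult supernatant, against 20.5, 29.5 and 40.2 CPM in young supernatant (0.51 ± 0.17, adjusted p = 0.0399). Pdyn, the dynorphin precursor, differed by 0.54 (adjusted p = 0.032). Both sets of libraries overlapped, both calls were lost without the later sample numbers (adjusted p = 0.126 for Gnrh1 and 0.0698 for Pdyn), and leaving out 1 library ended the call in 8 of 12 cases for Gnrh1 and in 6 of 12 for Pdyn. Kiss1r, the kisspeptin receptor, differed by -0.21 (adjusted p = 0.168), and Tac2, the neurokinin B precursor, by -0.15 (adjusted p = 0.68). Gal, the galanin precursor, had 52.7, 83.3 and 97.6 CPM in adults and 56.7, 75.0 and 102 CPM in young mice, a difference of 0.04 (adjusted p = 0.899). The Gal values of both ages overlapped over nearly their whole range.

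Receptors for steroid and thyroid hormones were more often higher than lower in adult DHT mice. Of 21 tested receptors and cofactors, 8 rose and 1, Rxrb, fell, with a median of 0.22, while 9.47% of all tested genes rose and 10.5% fell. Thrb, thyroid hormone receptor beta, had 19.2, 21.5 and 26.5 CPM in adults and 8.15, 10.6 and 15 CPM in young mice (1.02 ± 0.15, adjusted p = 3.59e-05). Ncoa1, a coactivator of nuclear receptors, had 78.2, 94.9 and 115 CPM in adults and 41.7, 59.8 and 72.5 CPM in young mice (0.76 ± 0.17, adjusted p = 0.00312). Thrb and Ncoa1 did not overlap between the ages. Both remained called without the later sample numbers and with the length offset. Vehicle adults differed from young vehicle mice by 0.63 for Thrb and 0.28 for Ncoa1.

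The oestrogen and progesterone receptors had adjusted p-values close to the threshold. Esr1, oestrogen receptor alpha, had 8.65, 21 and 25.1 CPM in adults and 8.18, 13.7 and 19.2 CPM in young mice, 0.52 on the log2 scale, and did not pass the test (adjusted p = 0.0938). Esr2, oestrogen receptor beta, differed by 0.79 (adjusted p = 0.0438) and Pgr, the progesterone receptor, by 0.22 (adjusted p = 0.0401), and each call was lost in 8 of the 12 fits that left out 1 library. Greb1, a gene induced by oestrogen, had 1.01, 1.24 and 2.56 CPM in adults and 0.186, 0.513 and 1.09 CPM in young mice (1.25 ± 0.38, adjusted p = 0.0236). Adult replicate 1 alone reached into the young range. Without the later sample numbers 5 members of the list were higher and 0 lower, and with the length offset 4 were higher.

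Of the enzymes that make and clear steroids, 15 of 23 listed could be tested, and 4 fell while 0 rose. Among all tested genes 10.5% fell and 9.47% rose. Srd5a1, the brain form of the enzyme that turns testosterone into DHT and progesterone into neurosteroid precursors, had 9.07, 11.2 and 13.6 CPM in adults, against 18.6, 19.6 and 28 CPM in young mice. It was 1.89-fold lower without overlap (log2 -0.92 ± 0.12, adjusted p = 7.67e-06), differed by -0.98 in vehicle mice, and stayed called when any 1 of the 12 libraries was left out. Sult1a1, a sulfotransferase, and Akr1c14, which makes neurosteroids from the products of Srd5a1, differed by -1.28 (adjusted p = 0.0225) and -1.40 (adjusted p = 0.037). Neither of these kept its call without the later sample numbers. Cyp19a1, the aromatase that makes oestradiol, differed by -0.36 (adjusted p = 0.406).

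Genes that handle or answer thyroid hormone, whose receptor Thrb rose, went both ways: of 16 tested, 5 fell, 2 rose and 9 did not pass the test. Among all tested genes 10.5% fell and 9.47% rose. Hr, a corepressor induced by the hormone, had 10.2, 12.4 and 15.9 CPM in adults and 15.1, 22.4 and 25.1 CPM in young mice (-0.77 ± 0.15, adjusted p = 0.000807). The 2 that rose were Thrb itself and Ncoa1, both counted above among receptors and cofactors. Mbp and Dio3 are members of this list too, and 5 of its 7 calls remained without the later sample numbers.

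Genes of the circadian clock were higher in adults. Of 20 tested, 9 rose and 0 fell in adult DHT mice, with a median of 0.28, while 9.47% of all tested genes rose. In vehicle mice 8 rose and 0 fell. Bhlhe40, a repressor that acts on E-boxes, had 61.2, 65.7 and 75.3 CPM in adults, against 37.5, 41.2 and 48.4 CPM in young mice (0.64 ± 0.08, adjusted p = 6.16e-06). Clock, the activator itself, had 20.2, 22.5 and 24.1 CPM in adults and 13, 15.4 and 18.6 CPM in young mice (0.50 ± 0.13, adjusted p = 0.00864). Nr1d1, the nuclear receptor REV-ERB alpha, had 187, 196 and 213 CPM in adults and 146, 167 and 181 CPM in young mice (0.28 ± 0.06, adjusted p = 0.00311). These 3 did not overlap, though the steps were small. The repressors Cry1 (0.33) and Cry2 (0.45) rose, as did Rorb (0.44), Arntl (0.25) and Tef (0.27), while Per1, Per2 and Per3 did not pass the test. Time of day is not given in the labels, and its part in the result was not tested. Without the later sample numbers 2 members remained called, Bhlhe40 among them. Nr1d1 overlaps Thra on the opposite strand.

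Clock and its partner Arntl bind the E-box CACGTG, which reads the same on both strands. Of the 20 clock genes, 17 matched the RefSeq promoters by symbol, and in 5 of them (Bhlhe41, Ciart, Cry1, Per1 and Tef) the 250 bases before at least 1 start held it, as in 6.86% of the 27025 genes of the table. The 2 of these genes that rose, Cry1 and Tef, are shown from RefSeq (GRCm38.p6) with the E-box in capitals, for Cry1 at chr10:85185055-85185304 on the minus strand and for 1 start of Tef at chr15:81811164-81811413 on the plus strand.
Cry1: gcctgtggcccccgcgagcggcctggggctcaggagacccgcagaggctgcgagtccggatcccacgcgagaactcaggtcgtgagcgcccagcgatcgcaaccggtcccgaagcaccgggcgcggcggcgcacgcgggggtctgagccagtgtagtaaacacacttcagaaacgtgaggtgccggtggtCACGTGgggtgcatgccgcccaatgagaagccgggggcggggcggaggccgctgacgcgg
Tef: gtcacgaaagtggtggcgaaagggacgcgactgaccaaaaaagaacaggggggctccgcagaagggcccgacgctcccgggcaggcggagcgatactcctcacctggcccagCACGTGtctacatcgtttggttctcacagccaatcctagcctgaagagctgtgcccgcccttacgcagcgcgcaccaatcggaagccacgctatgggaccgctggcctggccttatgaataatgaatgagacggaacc
The E-box lay 60 bases before the start of Cry1 and 138 bases before that of Tef. Whether it is occupied in these cells was not measured.

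Red cell transcripts were lower in adults. The summed level of 5 such genes was 8.21, 19.3 and 23.5 CPM in adult DHT mice, against 50.4, 68.8 and 90.2 CPM in young DHT mice, with no overlap. Of the 5, Beta-s, Alas2 and Hba-a2 were called lower and 2 were not called. The log2 change was above 0 in 1 of the 5. Beta-s, a name of the adult beta globin gene, had 5.01, 9.65 and 13.3 CPM in adults and 26.3, 40.4 and 48.7 CPM in young mice (-2.07 ± 0.31, adjusted p = 7.66e-05). Alas2, the first enzyme of haem synthesis in red cell precursors, had 0.603, 2.27 and 3.03 CPM in adults and 5.87, 9.60 and 11.9 CPM in young mice (-2.02 ± 0.34, adjusted p = 0.000174). Every young library exceeded every adult one for both. The globin genes Hba-a2 (-2.16, adjusted p = 0.004) and Hbb-b2 (-2.70, adjusted p = 1e-07) have near-identical copies, so their split between copies is uncertain. Hbb-b2 is not among the 5 genes of the sum. Hba-a2 lost its call without the later sample numbers (adjusted p = 0.0785). Alas2 shares exon sequence with Apex2 on the opposite strand.

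Some vascular and matrix genes were lower in adults, and how many depended on adult replicate 4, the library with the high vascular and meningeal sums. The shares of all tested genes that fell and rose were 10.5% and 9.47%. Of 20 endothelial and mural genes 5 fell and 0 rose, with summed levels of 53.6, 57.6 and 264 CPM in adults and 64.6, 99.9 and 211 CPM in young mice. Without adult replicate 4 the count was 11, and without the later sample numbers it was 1. Rgs5, a marker of pericytes, had 3.21, 3.82 and 5.27 CPM in adults, against 5.75, 7.55 and 12 CPM in young mice (-1.01 ± 0.17, adjusted p = 0.000204), with no overlap, and was the call that remained. Of 26 collagens and matrix genes 6 fell and 0 rose, 16 fell without adult replicate 4, 1 fell without young replicate 4, and 1 fell without the later sample numbers. Col9a3, a collagen IX chain, had 2.69, 5.58 and 6.95 CPM in adults and 11.5, 17.1 and 19.6 CPM in young mice (-1.64 ± 0.19, adjusted p = 1.48e-06), and no library of either age crossed. Col9a3 overlaps Tcfl5 on the opposite strand. Eln, the elastin gene, had 0.762, 1.63 and 23.3 CPM in adults and 2.82, 27.3 and 94.8 CPM in young mice, a wide spread within each age that overlapped between them. The share of vessels and meninges in each punch moved with these counts, and its part in them was not tested.

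Link proteins and other genes of perineuronal nets, the matrix that coats mature interneurons, went both ways. Hapln4, a link protein at inhibitory synapses, had 94.0, 107 and 114 CPM in adults, against 53.8, 65.1 and 68.3 CPM in young mice (0.75 ± 0.09, adjusted p = 3.68e-06). Hapln1 had 1.24, 1.32 and 3.13 CPM in adults and 2.91, 3.70 and 5.85 CPM in young mice (-1.14 ± 0.23, adjusted p = 0.00128), so that members of 1 family moved apart. Of 15 tested, 2 rose and 3 fell, Hapln2, Adamts4 and Tnc being the others called, while 9.47% of all tested genes rose and 10.5% fell. Without the later sample numbers 2 rose and 2 fell.

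Astrocyte and immune genes had few calls. Of 18 astrocyte genes 2 rose, Acsbg1 (0.39) and the GABA transporter Slc6a11 (0.61), and Gfap, the intermediate filament of reactive astrocytes, fell by 0.76 (adjusted p = 0.0265). The call of Gfap was lost in 5 of the 12 fits that left out 1 library. In this list 4 genes rose and 0 fell without the later sample numbers, with Gfap at -0.47 (adjusted p = 0.458) and Slc6a11 at 0.38 (adjusted p = 0.21). Of 20 microglial genes 1 passed the test, Itgam, the complement receptor CD11b, at 1.00 ± 0.31 (adjusted p = 0.0227), lost in 4 of those 12 fits, and 3 rose without the later sample numbers. Tap2, a peptide transporter for antigen presentation, was the 1 of 22 complement and antigen genes that rose (1.02 ± 0.21, adjusted p = 0.00141), and without the later sample numbers 2 rose. Of 24 interferon response genes Stat2 rose (0.56) and Ifi44 fell (-1.51), and neither kept its call without the later sample numbers (adjusted p = 0.0714 for Stat2 and 0.109 for Ifi44). At most 3 members were called in each of these 4 lists, against 19.9% of all tested genes called in either direction.

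**Figure D3:**
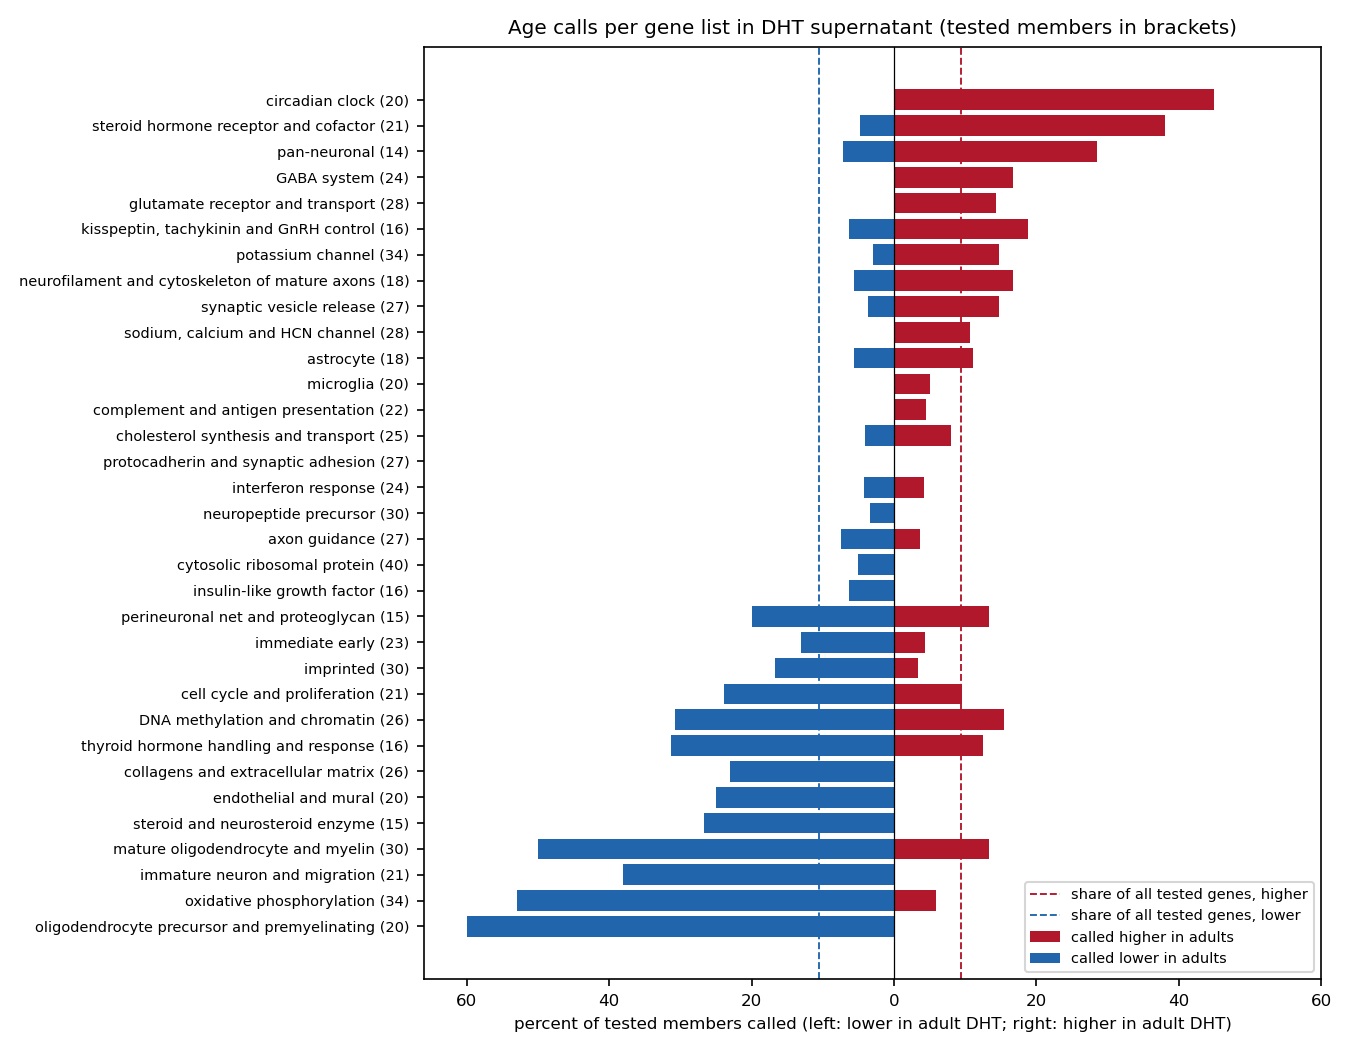
Percent of the tested members of each of 33 gene lists (rows) that were lower (left bars) or higher (right bars) in adult than in young DHT mice; dashed lines are the shares of all tested genes, 10.5% lower and 9.47% higher. Precursor, myelin and oxidative phosphorylation genes have the longest bars on the lower side, and clock and steroid receptor genes on the higher side.

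Calls among genes of neuronal signalling were few in DHT mice, and most of them were rises. Of all tested genes 9.47% rose and 10.5% fell, 19.9% in either direction, and each list below had a smaller share called than that. Of all tested genes whose longest transcript was 4 to 8 kb, 14.3% rose and 4.64% fell. The part of transcript length in the rises was not tested. In the GABA system 4 of 24 rose and 0 fell: the receptor subunit Gabra3, the chloride exporter Slc12a5, the GABA-B receptor Gabbr2 and the synthetic enzyme Gad1. Gabra3 had 42.9, 45.8 and 48.6 CPM in adults, against 21.7, 30.7 and 42.0 CPM in young mice (0.55 ± 0.13, adjusted p = 0.00397). Slc12a5, which lowers chloride so that GABA inhibits, had 200, 221 and 238 CPM in adults and 130, 155 and 214 CPM in young mice (0.43 ± 0.12, adjusted p = 0.0123). Gabra3 did not overlap and Slc12a5 did. The later-numbered young libraries had 21.7 to 27.8 CPM of Gabra3, against 33.7 to 42.0 CPM in young replicates 1 to 3. Without those later libraries edgeR called 0 of the 24 GABA genes, 4 having an unadjusted p below 0.05, while on all libraries DESeq2 called 7 and limma with voom 10. Of 28 glutamate receptors and transporters 4 rose, led by Grm3, an inhibitory receptor shared with glia (0.76 ± 0.19, adjusted p = 0.00735); without the later sample numbers 1 rose, with the length offset 1, and with 1 library left out 1 to 5. Potassium channels gave 5 higher and 1 lower of 34, the fall being Kcnj10, the glial channel that buffers potassium (-1.08 ± 0.28, adjusted p = 0.00885). This list had 1 higher and 1 lower without the later sample numbers, 1 higher and 2 lower with the length offset, and 1 to 8 higher with 1 library left out. Among 28 sodium, calcium and HCN channels 3 rose, against 1 without the later sample numbers, 1 with the length offset and 0 to 6 with 1 library left out. Among 27 vesicle release genes 4 rose, including Syt4 (0.50) and Syt2 (0.84), while Stx1a, a plasma membrane SNARE, fell by 0.39. Of the vesicle genes 1 rose, Syt4, and 0 fell without the later sample numbers, with Syt2 at 0.51 (adjusted p = 0.17) and Stx1a at -0.31 (adjusted p = 0.0523), and with the length offset 2 rose and 2 fell. Of 27 protocadherins and synaptic adhesion genes, edgeR called 0 (5 at an unadjusted p below 0.05), DESeq2 0 and limma with voom 2.

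Neuropeptide precursors were called once in 30 in DHT mice. Npy, the precursor of neuropeptide Y, had 4.07, 7.38 and 10.6 CPM in adults, against 8.89, 16.6 and 29.5 CPM in young mice (-1.23 ± 0.25, adjusted p = 0.00109). The ages overlapped, and without the later sample numbers the difference was -0.74 (adjusted p = 0.106). In vehicle mice 11 of the 30 rose with age and 0 fell, with a median of 0.54, against 0.06 in DHT mice. Nts, the neurotensin precursor, for example had 45.9, 55.2 and 61.5 CPM in adult DHT mice and 35.5, 46.3 and 49.7 CPM in young DHT mice, a change of 0.29 (adjusted p = 0.17), and changed by 0.99 in vehicle mice. Scg2, a granin of dense core vesicles, changed by 0.47 (adjusted p = 0.0839) in DHT mice and 1.01 in vehicle mice, and Gal by 0.04 and 0.79. The GABA list gave 4 calls in DHT mice and 14 in vehicle mice, and the glutamate list 4 and 12.

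The test of the difference between the age changes of DHT and vehicle mice called 0 of 16286 genes (0%) by edgeR, with 888 genes at an unadjusted p below 0.05 and a smallest adjusted p of 0.875. DESeq2 called 0 (1011 at an unadjusted p below 0.05) and limma with voom 0 (1509), while edgeR without the later sample numbers called 4. A larger count in 1 treatment is therefore not shown to be a difference between treatments, for these lists or for single genes. The smallest p was that of Aldh1l2, a mitochondrial enzyme of folate metabolism, which changed by -0.29 in DHT mice and 0.74 in vehicle mice (difference -1.03 ± 0.23, unadjusted p = 0.000157). Aldh1l2 shares an exon stretch of 1056 bases with D10Wsu102e on the opposite strand, where reads cannot be told apart. Luzp1, a protein of actin bundles, changed by 0.16 in DHT mice and -0.30 in vehicle mice. Nostrin, which moves endothelial nitric oxide synthase, had 0.810, 0.986 and 1.18 CPM in adult DHT mice and 1.28, 1.90 and 2.60 CPM in young DHT mice, a change of -0.97 against 0.17 in vehicle mice. Each of these differences had an adjusted p of 0.875.

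Short and long transcripts moved apart with age. In DHT mice, tested genes whose longest transcript was up to 1 kb had a median log2 change of -0.285 (789 genes), with 30.9% called lower and 1.27% higher. Those of 4 to 8 kb had a median of 0.125, with 4.64% lower and 14.3% higher. The same order was seen in vehicle mice, at -0.21 for the shortest class, and was weaker in DHT mice without the later sample numbers, at -0.13 for the shortest class and 0.06 for 4 to 8 kb. Transcript length was known for 98.6% of tested genes.

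**Figure D4:**
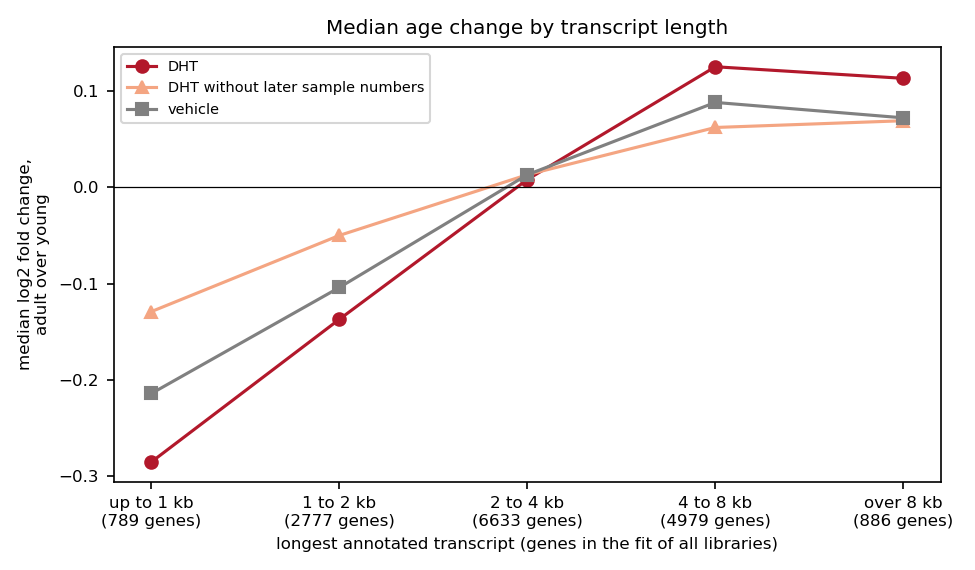
Median log2 change with age (vertical axis, adult minus young) of genes in 5 classes of longest transcript (horizontal axis, kb), for DHT mice, DHT mice without the later sample numbers and vehicle mice. The shortest class lies lowest in all 3, at -0.285 in DHT mice.

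Subunit lists rich in short genes changed with the fit. Of 34 oxidative phosphorylation subunits 18 fell and 2 rose in adult DHT mice (median -0.24), against 10.5% and 9.47% of all tested genes. With a transcript up to 1 kb 8 of 8 subunits fell, and above it 10 of 26. Uqcrfs1, the iron-sulfur protein of complex III, had 301, 316 and 351 CPM in adults, against 372, 403 and 450 CPM in young mice (-0.34 ± 0.06, adjusted p = 0.000374). Ndufs1, the largest subunit of complex I, had 198, 214 and 221 CPM in adults and 124, 168 and 175 CPM in young mice (0.39 ± 0.08, adjusted p = 0.00151). Sdha, the catalytic subunit of complex II, rose too, by 0.31 (adjusted p = 0.00325), while Sdhb, Sdhc and Sdhd of the same complex fell by 0.22, 0.26 and 0.18. Leaving out 1 library gave 10 falls (without young replicate 4) to 21 (without adult replicate 6). There was 1 lower subunit and 2 were higher without the later sample numbers, and with the length offset 5 were lower and 4 higher. Of the subunits called on all libraries, Ndufs1, Sdha and Uqcrfs1 were the 3 that remained called in both of these fits. Of 40 cytosolic ribosomal protein genes 2 fell (Rpl27 and Rps16), 0 rose and the median was -0.08; with the length offset 16 rose and 0 fell, and without the later sample numbers 1 rose. The direction of the ribosomal list thus flipped with the length offset. Length and sample number moved with these counts, and their part in them was not tested.

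**Figure D5:**
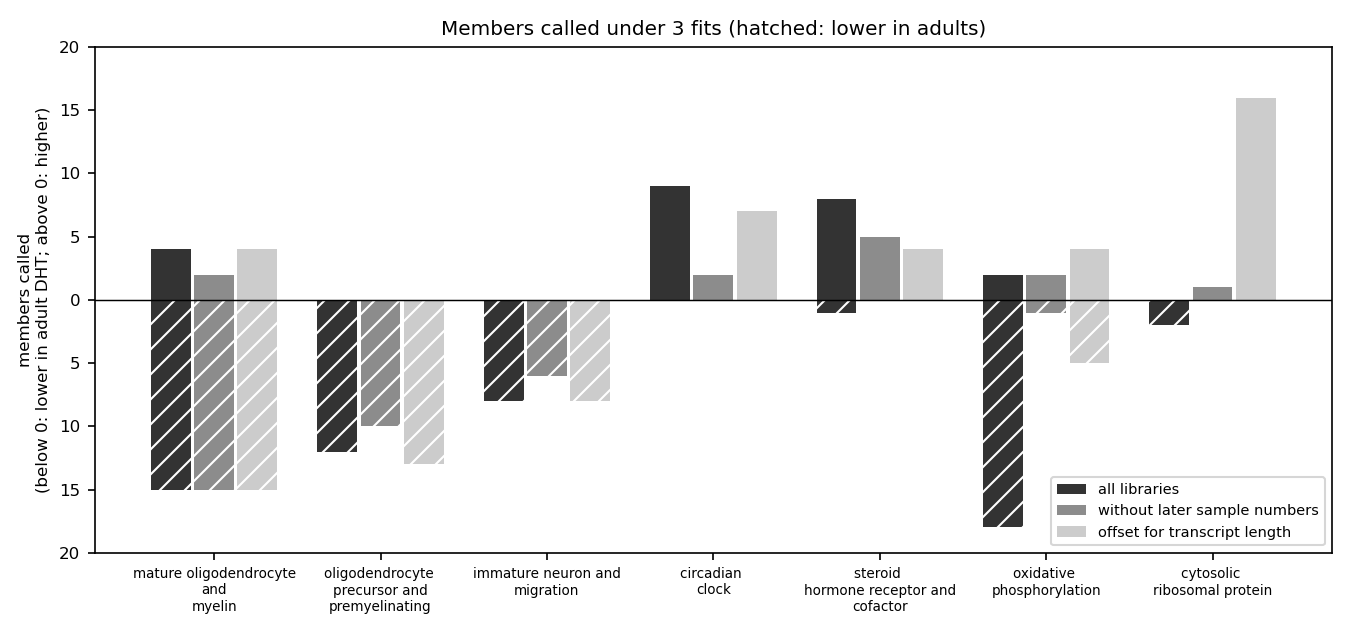
Members called higher (plain bars) or lower (hatched bars) in adult than in young DHT mice for 7 lists, in the fit of all libraries, without the later sample numbers and with the offset for transcript length. Precursor and myelin counts change little, at 10 to 13 and 15 lower, while oxidative phosphorylation has 18, 1 and 5 lower.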

How the data were processed

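The authors deposited 1 table of estimated counts for 23284 genes in 48 libraries; 98.49% of its values are whole numbers, and all were rounded here. Per the submitters' processing notes, the mm10 build was used with TopHat2 2.0.13 and Bowtie2 2.2.1, and Cuffdiff 2.1.1, HTSeq 0.6.1, Cufflinks, DESeq2 1.14.1 and FastQC 0.11.3 are also named; the sources used here do not say which program counted. Per the labels' protocols, polyA RNA was amplified with SMARTer v4, which does not mark strand. Table columns were matched to libraries by the sample number in each library's description, and the groups were taken from the titles. The 23 supernatant libraries were fitted together with edgeR 4.0.16 in R 4.3.3 (filterByExpr with a minimum count of 10 and total of 15, TMM, robust quasi-likelihood F test, Benjamini-Hochberg over 16286 genes, called below 0.05); standard errors follow from the F statistic. DESeq2 1.42.0, limma 3.58.1, other filters and scalings, libraries left out, a term for later sample numbers and an offset for transcript length (added after the data were seen) were alternatives. The edgeR test was also run on simulated counts. These held no shift with the later sample numbers and no trend with transcript length, so they cannot tell how either acts on the calls. Named are the 15 largest rises and 15 largest falls among called genes without overlap and averaging 5 CPM or more at the higher age, the 3 members with the smallest p of each list described, a few fixed reproductive genes, and members that complete a list. The members and the 33 gene and 13 marker lists were chosen with earlier results of these data known. Gene positions and promoters are RefSeq's (GRCm38.p6). Sums and CPM carry counting error from totals of 28136000 to 44607285 counts. A few list members are counted but not reported singly here.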

Additional observations from a re-analysis of the deposited data

Results flagged for a closer look

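Among 418 sets of 6 values tested, each a gene or list sum within 1 age, 61 had an outlying highest or lowest library. Its gap to its neighbour was a larger share of the range than Dixon's 95% critical value for 6 samples. That value gives about 1 in 20 for independent, normally distributed values. CPM values need not be normal, and sets share genes, so 61 has no exact benchmark. The gaps gathered in adult replicate 4 (18), adult replicate 1 (14) and young replicate 3 (10).

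Adult replicate 4 was the highest adult for genes of vessels, meninges and matrix. It had 58.5 CPM of the growth factor Igf2 (2.96 to 8.74 CPM in the other adults), 37.8 CPM of Dcn (2.17 to 4.32), 20.8 CPM of Col1a1 (1.18 to 2.74) and 5.99 CPM of the endothelial claudin Cldn5 (1.27 to 1.5). It also had 23.9 CPM of Cdkn1c, 13.2 CPM of Tap2, 3.83 CPM of Psmb9, 10.7 CPM of Sult1a1, 12.7 CPM of Kl, 8.77 CPM of Col23a1 and 31.5 CPM of Prkcd. Its list sums were 264 CPM for endothelial and mural genes, 194 CPM for meningeal fibroblasts, 419 CPM for matrix, 407 CPM for complement and antigen presentation, 190 CPM for interferon response, 452 CPM for insulin-like growth factors and 117 CPM for the cell cycle.

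Adult replicate 1 was the highest adult for oligodendrocyte genes. It had 1727 CPM of Mbp (782 to 1105 in the others), 287 CPM of Mobp, 516 CPM of Car2, 36.9 CPM of Gal3st1 and 5.34 CPM of Enpp6, with 6503 CPM over the myelin list and 2769 CPM over the thyroid list, which holds Mbp. It was also high for Tnfaip6 (14.3 CPM), Neat1 (45.0 CPM), Rasgrp3 (10.2 CPM), Gpt (11.1 CPM) and the thalamic gene Gbx2 (31.7 CPM), and low for Irs2 (99.2 CPM) and the preoptic marker sum (120 CPM). Adult replicate 5 had 517 CPM of oxytocin (Oxt) and 5.16 CPM of Sim1, a factor of oxytocin neurons, but 53.1 CPM of the striatal gene Ppp1r1b (478 to 690 in the others). Its sums were 164 CPM for the striatum, 2686 CPM for neuropeptides and 317 CPM for kisspeptin and GnRH control.

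Young replicate 3 was the highest young library for Gpr17 (60.6 CPM), Prom1 (6.96 CPM), Gabbr2 (42.2 CPM), Gria3 (31.0 CPM), Hcn2 (129 CPM), Nfasc (93.3 CPM) and Moxd1 (8.38 CPM), and for the sums of axon guidance (794 CPM), sodium, calcium and HCN channels (1558 CPM) and protocadherins (1358 CPM). Young replicate 4 was the highest for Cldn14 (6.94 CPM), Cldn5 (11 CPM), Stx1a (152 CPM), Rps2 (254 CPM), Ptprc (1.46 CPM), the cortical gene Emx1 (2.2 CPM) and the cortical sum (217 CPM), and the lowest for Nap1l5 (3403 CPM). Young replicate 1 had 14.6 CPM of Pls1 and a myelin sum of 8455 CPM, young replicate 2 had the lowest Olfml1 (1.79 CPM) and Hapln2 (6.78 CPM), and young replicate 6 had 1.99 CPM of Agrp. The part of tissue composition in these values was not tested.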

How the results depend on the processing

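The 1542 rises and 1706 falls stayed within 1.5 times under DESeq2, RLE size factors, limma with voom, both other filters, the replicate block and the length offset. With a term for the later sample numbers 789 genes rose and 1130 fell; without those libraries 487 rose, 634 fell, 94 fell by 2-fold or more, and 4 genes differed between the treatments' age changes. Changes of 2-fold or more numbered 53 (higher) and 116 (lower) under the 1 CPM filter, and 312 fell by that much with voom. Leaving out 1 DHT library gave 1005 to 1992 rises (fewest without young replicate 4) and 1274 to 1806 falls, 73 to 97 rises and 146 to 371 falls of 2-fold or more (371 without adult replicate 4), and 0 to 1 differences between treatments. Of 111 named genes that passed the test, 111 stayed called with DESeq2, 110 with voom, 94 with the length offset, 87 with the later-number term, 66 without those libraries and 89 to 107 with 1 library left out. Rpl27 turned to 0.0573 with the length offset (-0.24 before); the cause was not tested.

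The replicate numbers did not pair the ages, since deviations of same-numbered libraries correlated between -0.127 and 0.209. Blocking on the number in the fit gave 2195 rises and 1976 falls (89 and 217 of them by 2-fold or more) and 0 differences between treatments. Depth limits genes below about 1 CPM, whose values rest on few counts.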
